A study of Oryza sativa with 20 samples.

Results

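Rice pistils collected while pollen tubes were growing, 15 to 25 min after pollination (n = 3 arrays), were compared with the unpollinated stigma (n = 3) and the unpollinated ovary (n = 3). These are 9 of the 20 arrays of the series, and they were taken by the titles of the samples. A whole pistil holds stigma and ovary together, so a gene was counted as higher only where it lay above both unpollinated tissues and as lower only where it lay below both. All plants were Oryza sativa grown in paddy fields, the labels used here name no cultivar or treatment other than pollination, and each array was hybridised with cRNA made from 500 ng of total RNA. According to the labels, the pollen grains on the stigma were collected with the pistils. RNA from pollen, pollen tube and pistil therefore cannot be told apart in the pollinated samples, nor can fewer cells of a type be told apart from less RNA per cell. The other 11 arrays (stigma and ovary at 5 min, whole pistils at 40 to 50 min and at 5 to 7 h) were used to estimate the spread and to show levels at other times.

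A rice pollen grain that lands on the feathery stigma takes up water, germinates within minutes and sends a tube between the cells of the stigma and down to the ovule. The tube grows at its tip, where calcium, actin and wall-loosening proteins act together, and it is fed by sugars and minerals from the pistil. Pistils can also hold proteins known from the response to microbes, such as chitinases, lectins and enzymes of jasmonate synthesis. Whether pistil or pollen made such RNA cannot be told apart in these samples. The unpollinated stigma and ovary show what each tissue held before the pollen arrived.

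The measurements are relative intensities on a linear scale, set so that on each array the 75th percentile equals 1. The tests used log2 values with a floor, in which anything below 0.128 was counted as 0.128. The limma package gave the change against each tissue with its standard error (SE), and p-values were adjusted by the Benjamini-Hochberg method within each of the 2 comparisons. A call needs an adjusted p under 0.05 against both tissues in the same direction. The change printed for a gene is the smaller of its 2 changes, and the adjusted p printed is the larger of the 2. Fold changes are ratios of geometric means. Where at least 2 arrays of the nearer tissue lie at the floor the fold is written as "at least". Replicates are described as biological without a statement that plants or days differed. The p-values therefore reflect no more than the spread among these arrays, which may be technical.

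The tissue labels were set beside some of the 12 tested carpel and ovule genes. The ovule identity gene MADS13 had a mean intensity of 1.62 in the unpollinated stigma, 18.0 in the unpollinated ovary and 13.2 in the pistil. The YABBY factor YAB1 followed the same order at 6.16, 48.3 and 32.9, while the carpel identity gene DL went the other way at 16.4, 4.93 and 6.77. For each of these genes the pistil lay between its 2 tissues, nearer to the ovary. Others of the 12 also lay between, such as MADS1 at 39.9, 8.89 and 15.5, but not all did. In the same order MADS58 read 66.2, 42.8 and 42.2, MADS3 4.49, 5.38 and 5.58, and YAB2 2.91, 6.90 and 7.25. None of the 12 was called. Of 35470 probe sets tested, 14294 (40.3%) had a pistil mean between both tissue means. The median absolute log2 change was 0.44 against the stigma and 0.26 against the ovary.

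Against the unpollinated stigma, 4170 probe sets (11.8%) were higher in the pistil and 7500 (21.1%) were lower. Against the unpollinated ovary, 3070 (8.66%) were higher and 2507 (7.07%) were lower. The demand for both tissues left 1425 probe sets higher (4.02%) and 703 lower (1.98%). Counted as genes, each by its brightest probe set, 985 of 16263 (6.06%) were higher and 430 (2.64%) lower. Without any test, every pistil array lay above every control array for 1351 genes (8.31%) and below every control array for 1545 (9.50%).

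The rises were far larger than the falls. The median change of the called genes was 1.43 on the log2 scale for the higher ones and -0.59 for the lower ones. Of the higher genes 749 changed at least 2-fold, 275 at least 4-fold, 94 at least 8-fold, 33 at least 16-fold and 13 at least 32-fold. Of the lower genes 34 changed at least 2-fold and 2 at least 4-fold. The median change of all 16263 genes was -0.15 against the stigma and -0.08 against the ovary, so both medians lay slightly below 0.

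The number of lower probe sets depended on how arrays were scaled and the number of higher ones less so. Centring each array on its median gave 1325 higher and 111 lower, and scaling on probe sets bright on every array gave 1631 higher and 348 lower. Quantile normalization gave 1649 higher and 682 lower, among them 524 of the 703. The median change of all probe sets against the stigma was -0.26 as deposited and 0.00, -0.04 and -0.10 under these scalings. The lower count also fell to 345, 378 and 266 without pistil replicate 1, 2 or 3, and to 323 without unpollinated ovary replicate 3. The higher count lay between 988 and 1411 over all 9 fits that left out 1 array.

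**Figure D1:**
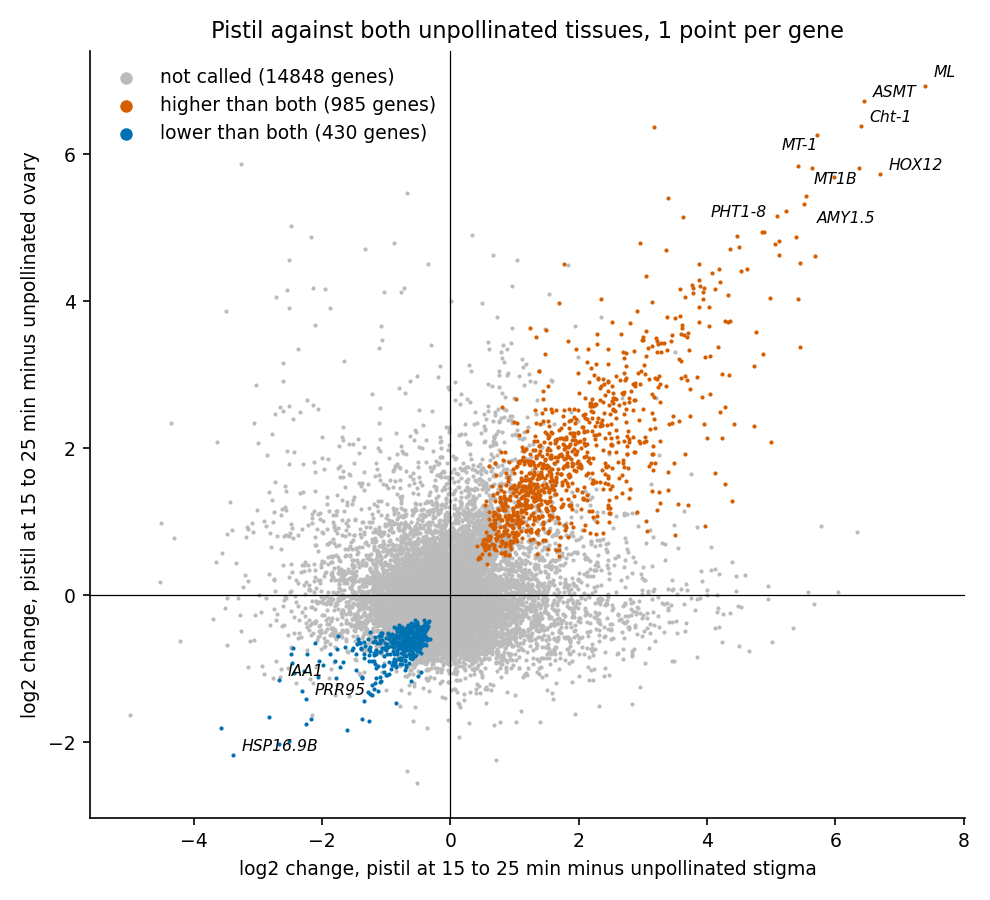
Each point is 1 of 16263 genes, with its log2 change in the pistil at 15 to 25 min against the unpollinated stigma (horizontal axis) and against the unpollinated ovary (vertical axis). Orange points are the 985 genes higher than both and blue points the 430 genes lower than both; the orange cloud reaches ML in the upper right corner, whereas the blue points end at HSP16.9B.

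Furthest above both tissues among the genes with a symbol was ML (LOC4326471), also called salT, a mannose-binding lectin first known from salt-treated rice. Its intensities were 69.3, 101 and 91.6 on the pistil arrays. They were 0.300, 0.144 and 3.07 in the unpollinated stigma and 3.50, 0.641 and 0.156 in the unpollinated ovary. The 16 rises and 10 falls ranked here were taken from symbol-named called genes whose pistil arrays lay beyond all control arrays. That their groups did not overlap was therefore fixed by the choice. Of the 33 genes at least 16-fold higher 13 had a symbol. For ML 1 stigma array and 1 ovary array stood well above the other controls. The smaller of its 2 changes was 6.93 ± 0.99 (SE) on the log2 scale, against the ovary, a 122-fold rise with an adjusted p of 0.000171. Both of its probe sets were called.

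Chitinases, which cut the chitin of fungal walls, made up 3 of the 16 largest rises among symbol-named genes. Cht-1 (LOC4342115) read 17.6, 20.6 and 16.3 on the pistil arrays. It read 0.0829, 0.244 and 0.309 in the stigma and 0.536, 0.148 and 0.0876 in the ovary. All pistil arrays were far above all controls, and the rise was 83.5-fold (6.38 ± 0.49 on the log2 scale, adjusted p = 5.27e-07). Cht-3 (LOC4342114), whose gene lies next to that of Cht-1 in the reference annotation, rose 29.6-fold from means of 0.208 ± 0.0596 (SD, n = 3) in the stigma and 0.197 ± 0.0436 in the ovary to 5.99 ± 0.365. Cht2 rose at least 21.6-fold to a pistil mean of 3.30 ± 0.847 (adjusted p = 2.99e-05), with 2 of 3 arrays of each tissue at the floor. These 3 chitinases are close relatives, and signal shared between probe sets of related genes was not tested. The probe set of Cht-3 is marked as one that may cross-hybridise with other transcripts. It was absent from the fit without such probe sets, in which Cht-1 and Cht2 kept their calls.

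The defence list held 24 tested genes, of which 7 were higher and none lower, or 29.2% against 6.06% of all genes tested. Among the 2269 tested genes with a symbol 179 were higher and 47 lower. This list, like the other lists here, was chosen with earlier results of these data known, so its share is a description and no independent support. The median change of the defence list was 0.70 against the stigma and 0.98 against the ovary, where all genes had -0.15 and -0.08. The other 4 called members are named here after their values were seen. PBZ1, a pathogenesis-related protein of the PR10 family induced by the rice blast fungus, read 13.1, 11 and 9.59 in the pistil and between 0.753 and 2.04 in the stigma. It was between 0.130 and 0.142 in the ovary, so the stigma was the nearer tissue (3.17 ± 0.63 on the log2 scale, adjusted p = 0.000949). The chitinase Cht6 and the chitinase-type gene LOC4351188 rose by 2.20 and 1.39 on the log2 scale. CERK1, a receptor kinase that perceives chitin, rose by 0.42 (adjusted p = 0.0486) and lost its call under quantile normalization and median centring.

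Jasmonate is a lipid-derived hormone made through lipoxygenases and 12-oxo-phytodienoate reductases, and the JAZ proteins repress its response until the hormone triggers their breakdown. Of 32 tested genes of the jasmonate list 8 (25.0%) were higher and 1 was lower, with median changes of 0.83 against the stigma and 1.24 against the ovary. JAZ8 (LOC4347164) read 21.2, 21.1 and 22.9 in the pistil. It read 0.214, 0.267 and 1.31 in the stigma and 4.29, 0.583 and 0.280 in the ovary. The pistil arrays were nearly alike and lay above all controls, among which ovary replicate 1 was highest, and the rise was 24.5-fold (4.61 ± 0.84 on the log2 scale, adjusted p = 0.00149).

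Reductase and lipoxygenase genes were listed by name alone, without a check that each acts in jasmonate synthesis. The reductase genes OPR1, OPR-1 and OPR10 rose by 2.30, 2.18 and 1.94 on the log2 scale, and the last 2 are neighbours in the annotation. The lipoxygenase genes LOX1.1 and LOX5 rose by 2.25 and 1.33. The further repressors JAZ5 and JAZ3 rose by 1.07 and 0.79. The lower member was COI2, an F-box protein of the jasmonate receptor family. Its change was -0.43 ± 0.13, and it was lost without pistil replicate 2 (-0.46) or 3 (-0.31) and without ovary replicate 1 (-0.39) or 3 (-0.36).

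Metallothioneins, small cysteine-rich proteins that bind metal ions, gave another pair of large rises. MT1B (LOC4332487) rose 43.1-fold, from 0.141, 0.182 and 0.632 in the stigma and 0.538, 0.196 and 0.192 in the ovary to 10.8, 13.4 and 11.3 in the pistil (5.43 ± 0.50 on the log2 scale, adjusted p = 2.18e-06). MT-1 (LOC4351213) rose 42.9-fold, to pistil readings of 17.9, 13.3 and 14.6 (5.42 ± 0.65, adjusted p = 1.60e-05). The pistil arrays of both genes lay above every control array by a wide gap. In the redox list that holds them, 6 of 67 genes (8.96%) were higher and none lower. Its median changes were -0.08 against the stigma and 0.05 against the ovary, with 32 and 34 of the 67 changes above 0. The other 4 called members were the glutathione transferase GSTU6 (2.56 on the log2 scale), the alternative oxidase AOX1 (2.09), the glutaredoxin GRXS5 (1.60) and the metallothionein MT4A (1.53). GRXS5 read 6.09 and 6.79 on pistil replicates 1 and 3 but 1.85 on replicate 2, which lay below the highest ovary array (1.91).

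ASMT (LOC4346795), which makes melatonin by methylating acetylserotonin, read 14.8, 14.2 and 15.4 in the pistil. It read 0.161, 0.148 and 0.203 in the stigma, while 2 of 3 ovary arrays lay at the floor. The pistil arrays differed little from each other, and the rise over the stigma was 87.7-fold (6.46 ± 0.79 on the log2 scale, adjusted p = 2.62e-05). BURP17 (LOC4349896), a protein with a BURP domain, rose 34.1-fold to 6.55, 7.69 and 5.94. BGLU6, a beta-glucosidase that releases sugars from glucosides, rose 13.1-fold from the ovary mean of 0.797 ± 0.195 to 10.6 ± 3.11 (adjusted p = 1.77e-06).

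The glyoxylate cycle lets plant cells turn fat-derived carbon into sugar precursors, and its own enzymes are isocitrate lyase and malate synthase. MS (LOC9268154) carries a symbol in use for malate synthase, although the tables used here name no product for it. It read 5.13, 4.69 and 6.65 in the pistil against 0.111, 0.138 and 0.213 in the stigma and 0.274, 0.169 and 0.227 in the ovary. The rise was 24.8-fold (4.63 ± 0.77 on the log2 scale, adjusted p = 0.000638). ICL (LOC4343441), isocitrate lyase, read 2.62, 1.84 and 3.55 in the pistil and no more than 0.218 on any control array. Its rise was 14.7-fold (3.88 ± 1.04, adjusted p = 0.0160). The call of ICL was lost without pistil replicate 3, at a change of 3.65.

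**Figure D2:**
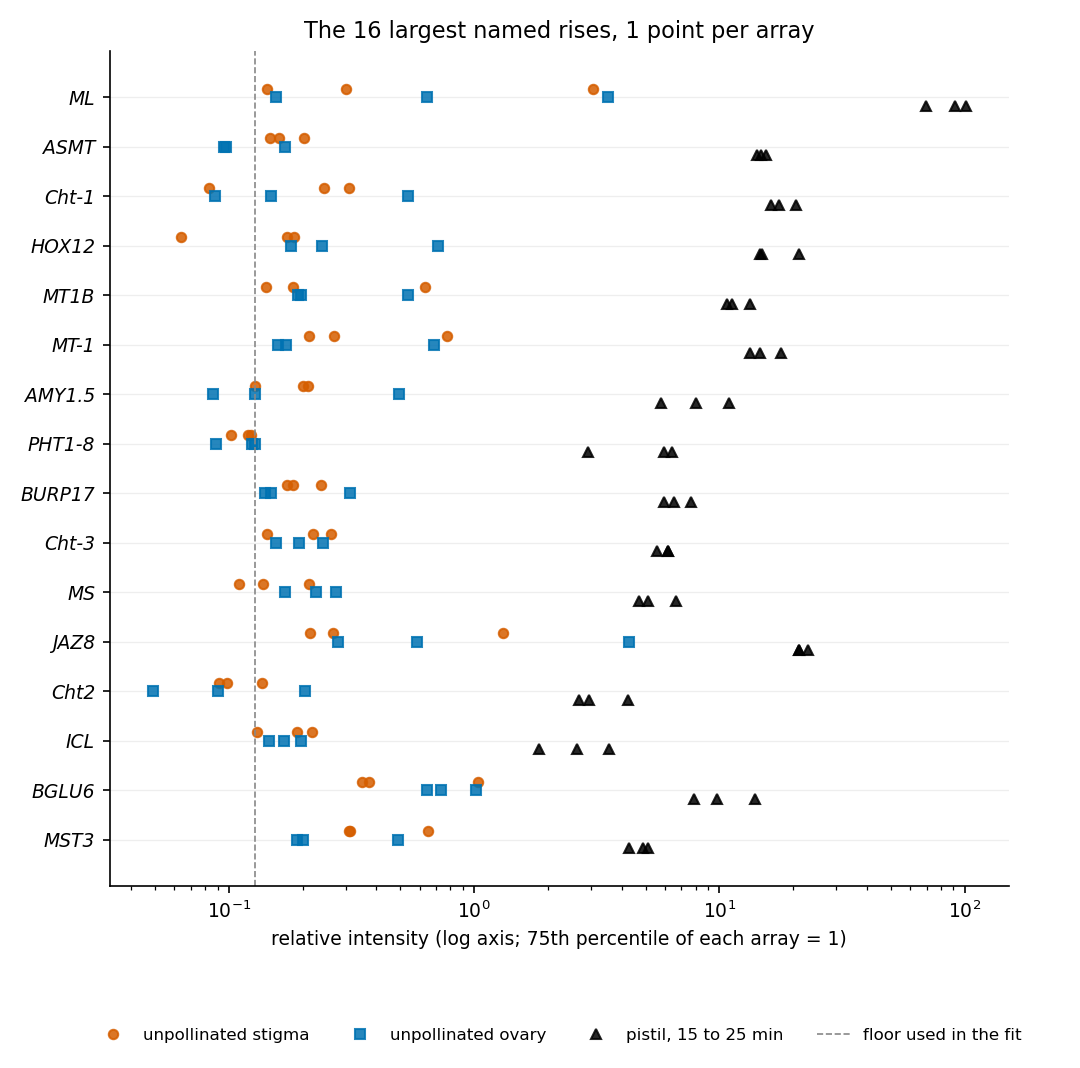
Relative intensity on a log axis of the 16 symbol-named genes furthest above both tissues, among those whose pistil arrays all exceeded all control arrays. There is 1 point per array: circles for the unpollinated stigma, squares for the unpollinated ovary, triangles for the pistil at 15 to 25 min, with the floor as a dashed line. The triangles stand clear of all control arrays because the genes were chosen so. The narrowest gap is at JAZ8, where ovary replicate 1 reads 4.29.

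Transport and sugar metabolism supplied further large rises. AMY1.5 (LOC4342055), an alpha-amylase that cuts starch, read 8.04, 10.98 and 5.78 in the pistil and no more than 0.494 on any control array, a rise of at least 39.9-fold between geometric means (adjusted p = 7.90e-07). The phosphate transporter PHT1-8 (LOC4348741) read 6.39, 2.91 and 5.93. All 3 stigma arrays and 2 of 3 ovary arrays lay at the floor, so that the rise was at least 37.5-fold (adjusted p = 1.35e-06). The monosaccharide transporter MST3 read 4.88, 4.26 and 5.12 and rose 11.9-fold over the stigma (3.58 ± 0.46 on the log2 scale). All 3 genes had pistil arrays clear of the controls, as the choice of the 16 rises required.

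Among 36 tested genes for water and sugar transport 4 (11.1%) were higher and 1 lower. Beside MST3 these were the aquaporin PIP2-5 (3.50 on the log2 scale), which lets water cross the plasma membrane, and the sugar exporters SWEET15 (3.25) and SWEET1B (1.78). Of 78 ion transporters 9 (11.5%) were higher and 1 lower, and the median change of the list was 0.00 against the stigma and 0.22 against the ovary. After PHT1-8 the largest rises there were the potassium transporter HAK27 (1.83), the ammonium transporter AMT3-2 (1.70) and the nitrate transporter NRT2.3 (1.65). HAK27 overlapped the controls, because stigma replicate 3 read 2.49 and the pistil arrays 1.56, 1.36 and 1.303. The lower member was the ammonium transporter AMT3-1 (-0.61 ± 0.20). Its call held in every fit without 1 stigma array or without pistil replicate 2 and was lost without pistil replicate 1 (-0.51) or 3 (-0.57) and without ovary replicate 1 (-0.61), 2 (-0.61) or 3 (-0.62).

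In the list of sucrose, starch and trehalose enzymes 4 of 37 genes (10.8%) were higher and none lower. They were AMY1.5, the amylase AMY1.3 (1.51 on the log2 scale), the trehalose phosphatase gene TPP9 (1.44) and the sucrose synthase gene SUS4 (1.29). SUS4, which splits sucrose, read 5.93, 5.61 and 6.51 in the pistil and between 1.66 and 3.20 on the 6 control arrays, so the groups did not overlap.

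Among transcription factors the homeodomain-leucine zipper gene HOX12 (LOC4331956) rose most. It read 14.7, 14.9 and 21.1 in the pistil, 0.0637, 0.173 and 0.185 in the stigma, and 0.716, 0.241 and 0.180 in the ovary. The rise was 53.0-fold over the ovary (5.73 ± 0.75 on the log2 scale, adjusted p = 7.86e-05), with no overlap. Of 80 genes in the list of HD-Zip, MADS, YABBY and TGA factors 8 (10%) were higher and 3 (3.75%) lower. Over all genes tested these shares were 6.06% and 2.64%. The median change of the list was -0.12 against the stigma and -0.01 against the ovary. Besides HOX12 the higher ones were HOX7 (2.17), HOX6 (1.96), HOX24 (1.84), Hox22 (1.48) and the bZIP factors TGA2.1 (0.93), TGA2.2 (0.71) and TGAL7 (1.23). These TGA genes, and the lower gene TGA2.3, are counted again in the list of WRKY, NAC, MYB and bZIP factors below. The 5 HOX genes belong to the HD-Zip class, and no MADS or YABBY gene was higher. The list held 4 higher genes without pistil replicate 1 or 3 and 5 without ovary replicate 3. The largest fall was MADS18, a relative of APETALA1 (-0.61 ± 0.18), which was lost without pistil replicate 2 (-0.58) or 3 (-0.54), stigma replicate 1 (-0.45) or ovary replicate 3 (-0.49).

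The list of WRKY, NAC, MYB and bZIP factors had 13 of 43 genes higher (30.2%) and 2 lower. The higher count was 7 (16.3%) without pistil replicate 1, 6 (14.0%) without pistil replicate 3 and 8 without ovary replicate 3. Its median change was 0.16 against the stigma and 0.56 against the ovary. WRKY proteins are plant regulators best known from defence. The gene listed as wrky38 (LOC4328512), whose synonym is WRKY71, rose most: it read 6.09, 1.54 and 10.96 in the pistil against 0.213, 0.249 and 0.502 in the stigma and 0.894, 1.08 and 0.119 in the ovary. Its rise was 9.42-fold (3.24 ± 0.67 on the log2 scale, adjusted p = 0.00350), although pistil replicate 2 lay not far above the highest ovary array. MYB4 rose by 2.70, NAC2 by 2.05 and MYB45 by 1.90, and the pistil arrays of these 3 lay above all controls. WRKY24 (1.55), WRKY76 (1.07) and NAC048 (1.23) overlapped the controls through pistil replicate 2, whose readings of 0.348, 0.158 and 3.85 were the lowest of the pistil arrays. MYB2 rose at least 2.75-fold, and it was lost without pistil replicate 1 or 3.

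Abscisic acid is the drought hormone. Some protein phosphatases of type 2C (PP2C) and the SAPK kinases act in its signalling, and dehydrins of the RAB16 group respond to it. Of 77 genes in the list 14 (18.2%) were higher and 2 lower, with median changes of -0.07 against the stigma and 0.19 against the ovary. PP2C genes were listed by name alone, without a check that each acts in this signalling. They made up 55 of the 77, and 10 of them (18.2%) were higher. RAB16B read 2.54, 0.594 and 1.46 in the pistil, against 0.129, 0.205 and 0.0913 in the stigma and 0.263, 0.570 and 0.133 in the ovary. The groups came close, since pistil replicate 2 barely exceeded ovary replicate 2. Its change was 2.26 ± 0.58 (adjusted p = 0.0131), and it was lost without pistil replicate 1 (1.78) or ovary replicate 3 (1.75). Of the other 13 higher genes 10 were PP2C genes, led by PP2C51 (1.57), and the rest were RAB16C, the kinase gene SAPK1 (0.71) and ABA8OX2 (0.69), which breaks the hormone down. The list held 4 higher genes without pistil replicate 1, all of them PP2C genes, 8 without pistil replicate 3 or stigma replicate 3, and 7 without ovary replicate 3. The PP2C genes among them numbered 6 in each of these last 3 fits. Lower were the phosphatase gene OsPP2C21 (-0.68) and the kinase gene SAPK10 (-1.10 ± 0.29). SAPK10 read 0.494, 0.396 and 0.534 in the pistil and between 0.836 and 2.64 on the control arrays. Its call was lost without pistil replicate 2 (-0.98) or ovary replicate 3 (-1.01).

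Calcium carries signals in the growing tube and in the cells it touches, and it is read by calmodulin-like proteins and calcium-dependent kinases. Of 87 genes of this list 12 (13.8%) were higher and none lower, with median changes of -0.10 and 0.36 against stigma and ovary. CML4, a calmodulin-like protein, read 3.44, 4.09 and 2.23 in the pistil and between 0.214 and 0.750 on the control arrays, a 7.34-fold rise (2.88 ± 0.52 on the log2 scale, adjusted p = 0.00143). The kinase genes CPK12, CPK21 and CPK13 rose by 2.19, 1.66 and 0.97. The kinase gene CIPK6 rose by 1.68 and the calcium pump gene ACA7 by 1.53. CIPK23, which was bright throughout (14.7 to 29.2 in the pistil), overlapped stigma replicate 3 at 17.5.

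Wall enzymes and expansins remodel the cell wall as cells grow. Of 45 wall enzymes 7 (15.6%) were higher and none lower, led by the COBRA-like gene BC1L6 (2.42, 2.06 and 1.65 in the pistil, at most 0.498 on the control arrays, 2.47 ± 0.37 on the log2 scale). XTH8, an enzyme that cuts and rejoins xyloglucan, rose by 1.94 to 10.4, 9.05 and 14.1. Without pistil replicate 1 or stigma replicate 2 the wall enzymes held 4 higher genes, and without pistil replicate 3 they held 2. Of 25 expansins, which loosen walls, 3 (12%) were higher and 1 (4%) lower, against 6.06% and 2.64% of all genes tested. The higher count was 1 without pistil replicate 1, and the lower count was 3 without stigma replicate 2. EXP29 rose by 1.75 ± 0.35 to 2.41, 3.73 and 2.52. The beta-expansin EXPB4 fell from 47.4, 35.5 and 52.8 in the stigma and 31.9, 29.1 and 43.1 in the ovary to 18.4, 20.4 and 21.0 (-0.78 ± 0.17, adjusted p = 0.00485), with no overlap. Of 39 genes of the actin and ROP list, which steer tip growth, the formin gene FH16 alone was called (1.24 ± 0.32), and its call was lost without pistil replicate 3 (0.92) or ovary replicate 3 (0.97). PSK4, a precursor of the growth peptide phytosulfokine, rose by 1.78 ± 0.21 and was the only one of 8 peptide and receptor kinase genes called.

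The other hormone lists held few calls. Of 15 genes of the gibberellin list 3 (20.0%) were higher and none lower. They were KO1 (at least 3.42-fold), a P450 related to kaurene oxidases, the gibberellin-inactivating EUI (0.78 on the log2 scale) and CPS4 (at least 1.72-fold), a cyclase of rice phytoalexin synthesis. For CPS4 2 of 3 stigma arrays and all 3 ovary arrays lay at the floor. The list held 1 higher gene without pistil replicate 1 or 3 or stigma replicate 1 or 2. The call of KO1 was lost in 8 of the 9 fits without 1 array, at changes from 1.61 to 2.01, and held without stigma replicate 3. Cytokinin had 2 of 30 genes higher (6.67%), LOGL3 (1.49 ± 0.41) and LOG (1.24 ± 0.26), both of which release active cytokinin. LOGL3 was lost without pistil replicate 1 (1.45) or 2 (1.36) or ovary replicate 1 (0.88). Of 19 genes of the ethylene list DREB2A, a drought-response factor of the same protein family as the ethylene response factors, was called (0.93 ± 0.26), and it was lost without pistil replicate 1 (0.84) or 3 (0.84) or ovary replicate 1 (0.87) or 3 (0.73).

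Of 57 auxin genes 2 were higher (3.51%) and 4 lower (7.02%), where all genes had 6.06% and 2.64%. Median centring left none of the 4 lower calls, and 2 genes were lower without ovary replicate 3. The median change of the list was -0.63 against the stigma and -0.14 against the ovary. Higher were the auxin-response repressor IAA6 (1.80 ± 0.38) and GH3.2 (1.78), which conjugates auxin to amino acids. Lower were IAA1, IAA10, the response factor ARF1 (-0.73) and the auxin exporter PIN3A (-0.80). PIN3A read 4.25, 4.37 and 4.32 in the pistil, at least 17.7 in the stigma and at least 6.58 in the ovary.

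**Figure D3:**
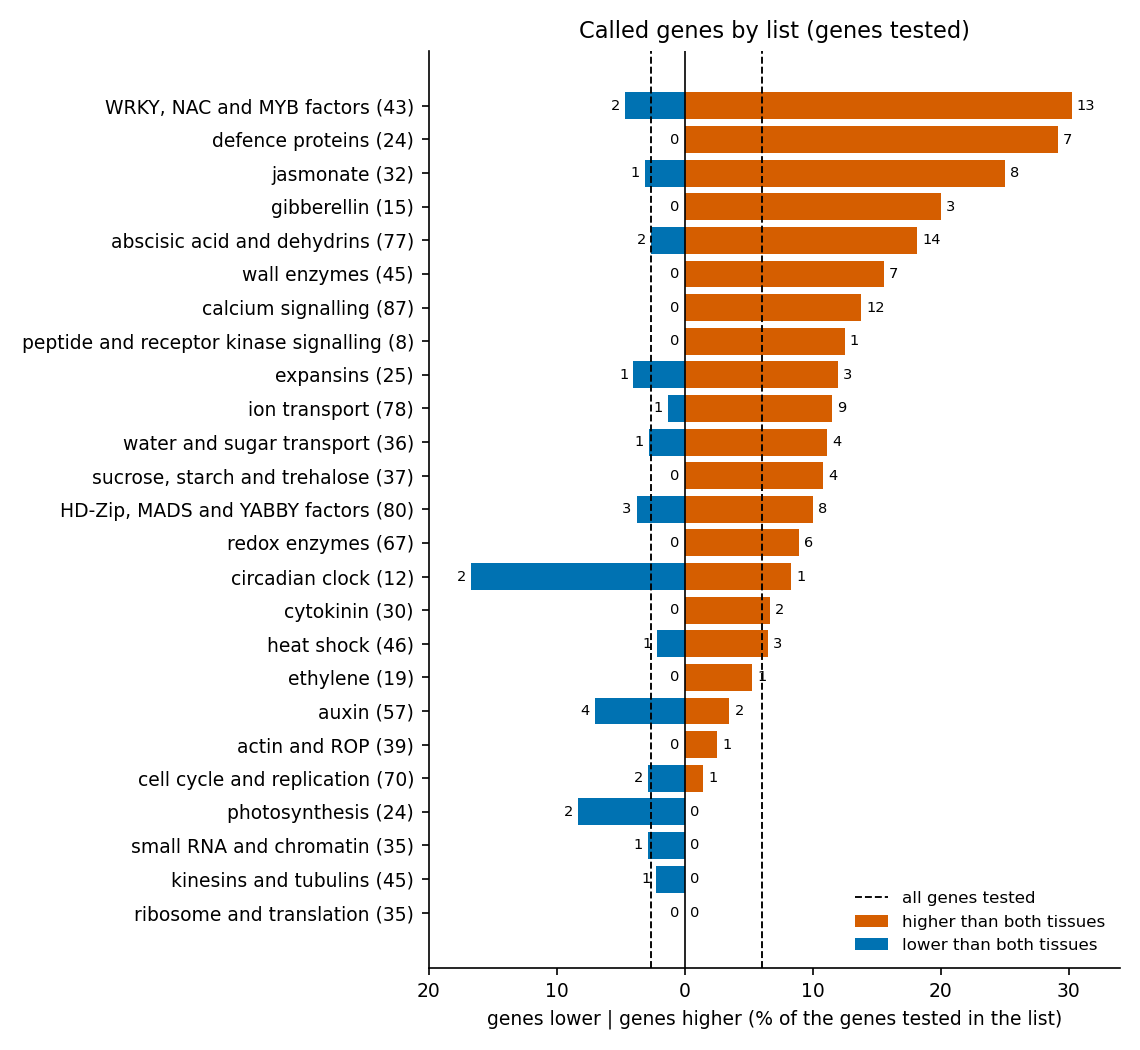
Share of each gene list's tested genes called higher (orange, to the right) or lower (blue, to the left) than both unpollinated tissues, in percent, with the number of genes tested in brackets after the name and the number called at each bar. Dashed lines mark the shares over all genes tested, 6.06% higher and 2.64% lower; the list that begins with WRKY factors reaches 30.2% and the ribosome list has no call.

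In the remaining lists the share of higher genes lay near that of all genes or below it. Of 46 heat shock genes 3 (6.52%) were higher and 1 lower. The higher count was 1 without pistil replicate 1, 5 without pistil replicate 2 and 6 without stigma replicate 1. HSF23, a heat shock factor, rose from at most 1.87 on the control arrays to 7.51, 4.48 and 7.03 (2.28 ± 0.38). Of 70 cell cycle and replication genes 1 (1.43%) was higher and 2 (2.86%) lower, against 6.06% and 2.64% of all genes tested. KRP6, an inhibitor of cyclin-dependent kinases, was higher on 1 of its 2 probe sets. It rose by 2.45 ± 0.57, from at most 1.28 on the control arrays to 4.79, 4.09 and 4.97. The cyclin gene CYCP3-1 (-0.45) and the kinase gene CDKE-1 (-0.37) fell. CYCP3-1 was lost without pistil replicate 1 (-0.38) or 3 (-0.42) or ovary replicate 1 (-0.42) or 2 (-0.35). None of 35 ribosome and translation genes was called, and their medians were -0.09 against the stigma and -0.33 against the ovary. No kinesin or tubulin gene of 45 was higher, and TUB4 alone was lower (-0.86 ± 0.30). Its call was lost without any 1 of the pistil arrays (-0.80 to -0.90), without stigma replicate 1 (-0.78) or 2 (-0.58) and without ovary replicate 1 (-0.86) or 3 (-0.58).

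Among 24 photosynthesis genes none was higher and 2 (8.33%) were lower, where 2.64% of all genes tested were lower. The 2 were PSB28 of photosystem II (-0.80 ± 0.26) and petC of the cytochrome complex (-0.70). PSB28 was lost without any 1 of the pistil arrays (-0.68 to -0.92) and without ovary replicate 1 (-0.66) or 2 (-0.73). Of 35 small RNA and chromatin genes the double-stranded RNA binding protein gene DRB1 (LOC4351288) was lower (-0.60 ± 0.18), a call lost without pistil replicate 3 (-0.52), stigma replicate 2 (-0.48) or 3 (-0.50) or ovary replicate 1 (-0.60). Of 12 clock and light genes the flowering-time gene Hd1 was higher (0.80 ± 0.27) and PRR95 and PHYA lower. Hd1 was dim, at most 0.313 on any of the 9 arrays, and was lost without pistil replicate 1 (0.79) or 2 (0.70), stigma replicate 1 (0.79) or 2 (0.75), or ovary replicate 3 (0.80).

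Beyond the members taken by rule, 91 further list members were called, and 51 of them lost the call in at least 1 of the 9 fits without 1 array. Of those named above, GH3.2 was lost without stigma replicate 2 (lowest change 1.13), EUI without stigma replicate 3 (0.50), MT4A without stigma replicate 1 or 2 (1.21) and ARF1 without ovary replicate 3 (-0.63). Leaving out at least 1 of the pistil arrays ended the calls of CERK1, JAZ3, JAZ5, GRXS5, HAK27, HOX24, Hox22, TGA2.2, TGAL7, WRKY24, WRKY76, NAC048, RAB16C, SAPK1, ABA8OX2, CIPK23, XTH8, CPS4, CDKE-1, petC and PHYA. The widest range among them was that of HAK27, whose change ran from 1.02 to 3.16, followed by RAB16C (0.75 to 2.09) and CIPK23 (0.66 to 1.89). XTH8 was lost without pistil replicate 3, stigma replicate 2 or ovary replicate 3, with a lowest change of 1.17. Where a gene named here had several tested probe sets, all were called except for Cht2 with 2 of 3 called, and AMT3-1, DRB1, CIPK23, PHYA, CDKE-1 and KRP6 with 1 of 2.

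Furthest below both tissues among the named genes was HSP16.9B (LOC4325698), a small heat shock protein that keeps other proteins from clumping. It read 0.149, 0.136 and 0.140 in the pistil, 5.10, 0.268 and 2.35 in the stigma, and 1.10, 0.413 and 0.570 in the ovary. The pistil values were just above the floor and did not overlap the controls, which varied widely. The change was -2.17 ± 0.66 (adjusted p = 0.0325). It was lost without any 1 of the pistil arrays (-2.15 to -2.21) and without ovary replicate 1 (-1.78) or 3 (-2.25).

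PRR95 (LOC4347674), a pseudo-response regulator of the circadian clock, read 4.47, 3.26 and 3.28 in the pistil. It read 9.77, 34.8 and 15.0 in the stigma and 9.97, 5.54 and 16.4 in the ovary. Every control array was higher, with a change of -1.41 ± 0.38 (adjusted p = 0.0177). The call was lost without pistil replicate 2 (-1.34) or 3 (-1.34) or ovary replicate 3 (-1.03). The times of day at which the samples were taken are not given in the sources used here.

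IAA1 (LOC4334069), a repressor of auxin response, read 5.91, 5.34 and 4.06 in the pistil, 25.0, 33.9 and 38.7 in the stigma, and 21.8, 7.27 and 8.95 in the ovary. Its change was -1.16 ± 0.31 (adjusted p = 0.0172), lost without pistil replicate 3 (-0.999) or ovary replicate 1 (-0.68). IAA10, of the same family, read 0.931, 0.638 and 0.905, against at least 3.13 in the stigma and at least 0.966 in the ovary. Its change was -0.90 ± 0.26, lost without pistil replicate 2 (-0.72) or ovary replicate 3 (-0.53). For both genes the stigma had the higher mean of the 2 tissues, 32.5 against 12.7 for IAA1 and 3.37 against 1.64 for IAA10.

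The bZIP factor BZIP06 fell by 1.13 on the log2 scale (SE 0.31) and was lost without pistil replicate 1 (-1.15) or 2 (-1.01) or ovary replicate 3 (-0.75). EGY1, related to a chloroplast protease of Arabidopsis, fell by 0.96 (SE 0.25, adjusted p = 0.00685), from 1.74, 3.58 and 2.10 in the stigma and 2.20, 2.32 and 3.26 in the ovary to 1.31, 1.10 and 1.24. That call held in all 9 fits without 1 array and was lost under median centring. IRL3, a leucine-rich repeat protein, fell by 0.90 (SE 0.23) and was lost without pistil replicate 3 (-0.84) or ovary replicate 3 (-0.63). The vacuolar aquaporin gene TIP4-2 (-1.08 ± 0.39, adjusted p = 0.0496) and the beta-glucosidase gene BGLU19 (-1.03 ± 0.35, adjusted p = 0.0478) sat at the threshold. TIP4-2 was lost without any 1 of the pistil arrays (-0.83 to -1.22), stigma replicate 2 (-1.01) or 3 (-0.97), or ovary replicate 3 (-0.50). BGLU19 was lost without any 1 of the pistil arrays (-0.84 to -1.15), stigma replicate 3 (-0.49), or any 1 of the ovary arrays (-0.95 to -1.03).

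**Figure D4:**
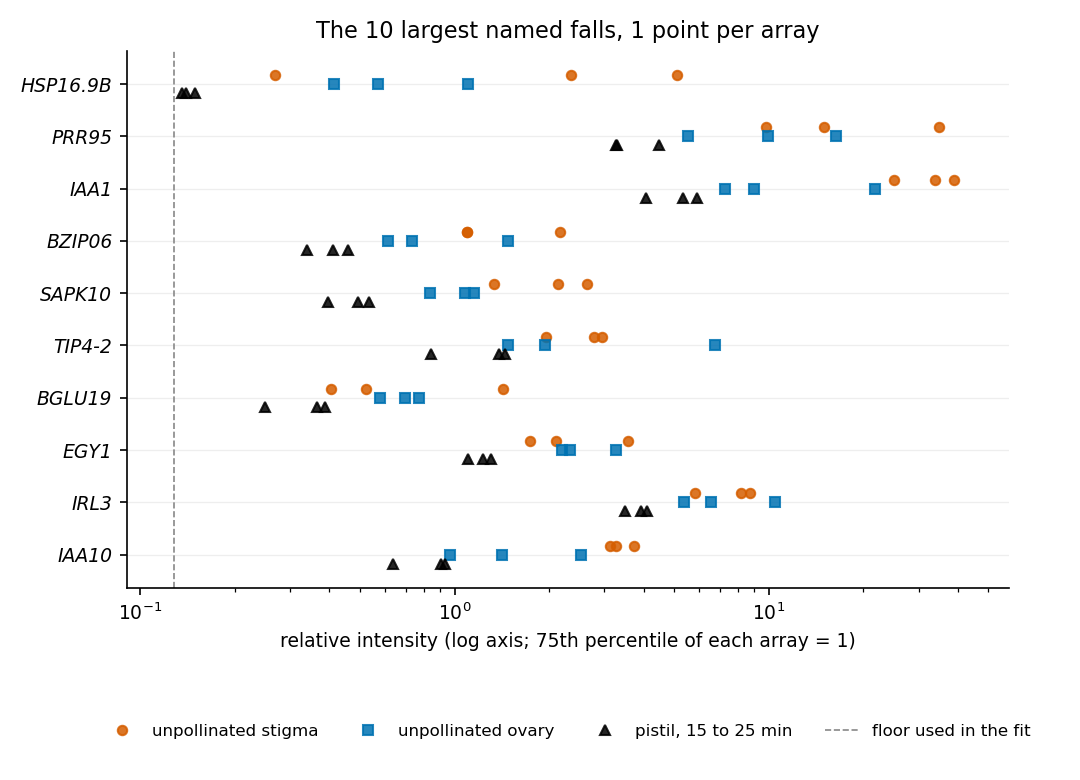
Relative intensity on a log axis of the 10 named genes furthest below both tissues, 1 point per array, with circles for the unpollinated stigma, squares for the unpollinated ovary and triangles for the pistil at 15 to 25 min. The triangles lie left of every control point, as the choice of these genes required. The gaps are small for most genes, as for IAA10, where the highest pistil array reads 0.931 and the lowest ovary array 0.966.

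Since pollen was collected with the pistils, pollen markers were set beside these results. The list had 6 tested genes, and none was called higher or lower. A call as higher needs the whole pistil, which holds ovary too, to exceed the stigma taken alone. Against the ovary alone EXPB9 was 15.7-fold higher (limma, adjusted p = 0.00139) and CPK29 4.46-fold higher (adjusted p = 0.0361). Rac1 was 1.54-fold lower than the ovary (adjusted p = 0.0151), and the others had no adjusted p under 0.05 there. Their summed intensity was 5.16 to 15.2 on the pistil arrays, 7.06 to 13.3 in the unpollinated stigma and 3.18 to 4.77 in the unpollinated ovary. At 5 min it had been 79.4 to 91.4 in the stigma and 11.97 to 25.4 in the ovary. The pollen beta-expansin EXPB9 read 10.8, 2.41 and 4.25 in the pistil, 3.83, 4.38 and 2.35 in the unpollinated stigma, and at most 0.487 in the unpollinated ovary. The pistil arrays overlapped the unpollinated stigma for EXPB9, CPK29, ADF-9 and EXPB10, and they lay below it for Rac1 and TUB8. The part of pollen RNA in the rises was not tested.

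Markers of other tissues gave no call either. None of 12 carpel and ovule genes, 6 tapetum and anther wall genes, 4 stamen and lodicule genes, 3 nucellus and early endosperm genes and 5 genes of photosynthetic tissue was called. The stamen and lodicule sum was 72.4 to 86.8 in the pistil, 163 to 180 in the stigma and 70.5 to 108 in the ovary. The tapetum sum was 4.40 to 5.31 in the pistil, 3.79 to 4.73 in the stigma and 3.75 to 4.59 in the ovary. The nucellus sum was 3.46 to 4.07 in the pistil, 1.46 to 1.95 in the stigma and 3.52 to 4.27 in the ovary. The photosynthetic sum was 22.6 to 28.5 in the pistil, 8.28 to 18.3 in the stigma and 33.2 to 52.6 in the ovary. The carpel and ovule sum was 136 to 161 in the pistil, 130 to 171 in the stigma and 153 to 159 in the ovary.

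Control arrays did not hold the higher genes at an even level. Among the 16 largest named rises, the highest of the 6 control arrays was unpollinated ovary replicate 1 for 7 genes and unpollinated stigma replicate 3 for 6 genes. Over all 985 higher genes these arrays were the highest control for 243 and 301 genes, and the others for 44 to 176. Ovary replicate 1 also had the largest share of tested probe sets at the floor (7.32%). The 16 calls held without either array.

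The levels of the 16 rises were followed over the other groups, without a test, since the genes were chosen by their level at 15 to 25 min. All 16 were already above both unpollinated tissues in the mean of each 5 min group. By 5 to 7 h they had parted. ASMT went from 14.8 ± 0.602 (SD, n = 3) at 15 to 25 min to 9.03 ± 7.14 at 40 to 50 min and 0.116 ± 0.0428 at 5 to 7 h, where 2 of 3 arrays lay at the floor. HOX12 went from 16.9 ± 3.66 to 10.6 ± 8.14 and 0.191 ± 0.0801, and BURP17 from 6.72 ± 0.887 to 3.10 ± 3.19 and 0.119 ± 0.0161. ICL read 2.67 ± 0.856, 1.93 ± 1.92 and 0.119 ± 0.0118 at the same times. At 40 to 50 min replicate 2 was far below the other arrays for all 4, so these means do not show a steady fall. By replicate ASMT read 11.85, 0.903 and 14.3 there, and HOX12 12.8, 1.63 and 17.45. BURP17 read 2.42, 0.301 and 6.58, and ICL 1.61, 0.191 and 3.98. By 5 to 7 h the means of these 4 genes were no higher than the larger of their unpollinated means.

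Others stayed up. MT1B read 11.8 ± 1.37 at 15 to 25 min and 16.7 ± 1.85 at 5 to 7 h, AMY1.5 8.27 ± 2.61 and 7.69 ± 1.12, and Cht-3 5.99 ± 0.365 and 4.37 ± 1.05. ML fell to 16.97 ± 0.656, a level still above every control array. The spread at 40 to 50 min was wide, as with ML, which read 65.8, 15.99 and 86.0, with replicate 2 again the lowest. Over all 1425 higher probe sets the median log2 difference from 15 to 25 min was -0.34 at 40 to 50 min and -0.78 at 5 to 7 h, and 182 were at least 4-fold below their level at 15 to 25 min by 5 to 7 h. Over the 703 lower probe sets these medians were 0.10 and 0.13. Among the falls IAA10 stood apart, with 0.825 ± 0.162 at 15 to 25 min, 1.78 ± 0.271 at 40 to 50 min and 14.6 ± 0.251 at 5 to 7 h, above all unpollinated samples.

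**Figure D5:**
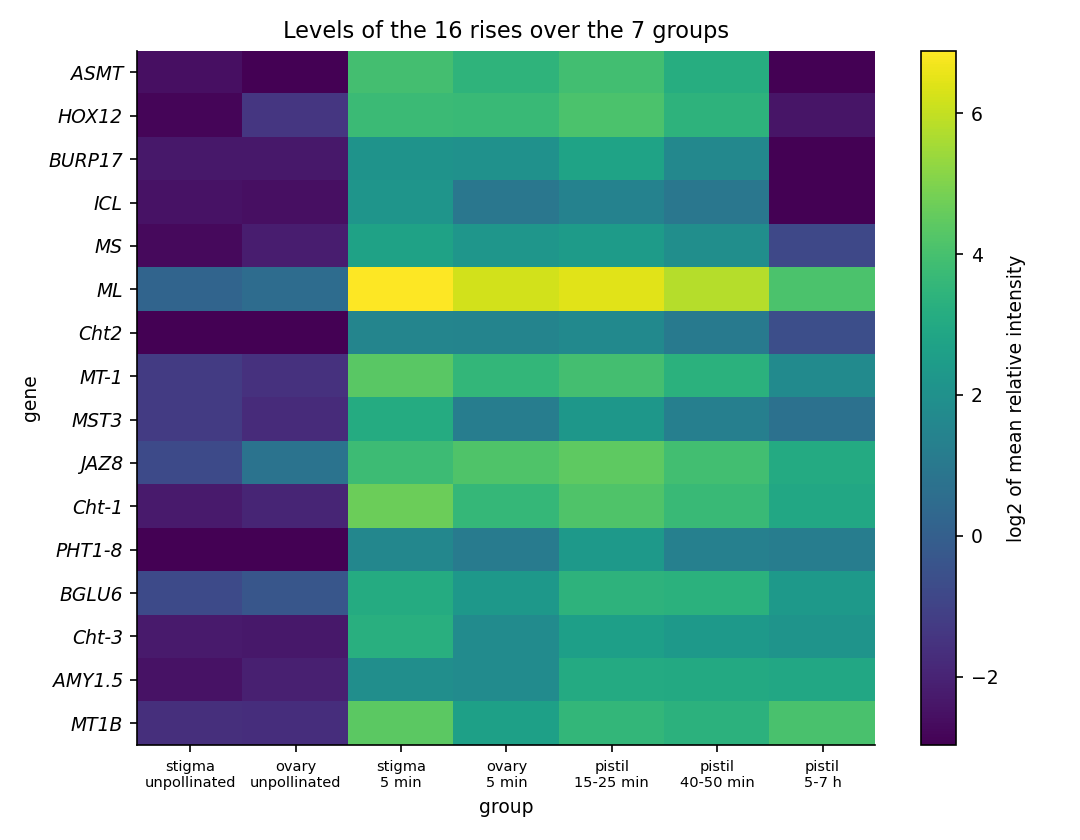
Mean relative intensity (log2 colour scale) of the 16 largest named rises in the 7 groups, ordered by how far each had fallen at 5 to 7 h against 15 to 25 min. ASMT, HOX12, BURP17 and ICL are dark again at 5 to 7 h, whereas MT1B at the bottom reads 16.7 there.

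The symbol-named genes most like the 6 largest named rises were sought by Pearson's r over the 7 group means on the log2 scale. This is a description of points that share arrays with the comparison itself. ML was most like MT-1 (r = 0.995) and 4CL-3 (0.994), a ligase of phenylpropanoid synthesis. MT-1 was in turn most like 4CL-3 (0.997) and ML. ASMT was most like HOX12 and ICL (0.992 each), and HOX12 was most like ASMT and HOX7 (0.992 each). Cht-1 was most like Cht-3 (0.994) and ML (0.992). MT1B was most like NAS3 (0.991), a nicotianamine synthase gene that makes a metal chelator, and Cht-3 (0.990).

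Some higher genes lay side by side in the reference annotation. Of 814 higher genes with a tested neighbour 126 (15.5%) had a higher gene next to them, and of all 13506 genes with a tested neighbour 8.58% did. For lower genes the shares were 4.02% and 3.69%. The pairs in which both genes have symbols were Cht-3 with Cht-1, OPR-1 with OPR10, RAB16C with RAB16B, and CRK6 with CRK10. The first 3 pairs hold closely related genes, and signal shared between their probe sets was not tested.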

How the data were processed

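The deposited intensity values of 57381 probe sets on 20 arrays of rice pistil tissue are linear relative intensities from the authors. The submitters' processing notes name GCOS 1.3, but no source used here names the program that set each 75th percentile to 1. Detection calls were not analysed here. A floor was set at the 20th percentile of the table before taking log2, and nothing else was normalized. The 187 control probe sets (123 AFFX and the reporter sets, the latter beyond the planned rule) were left out. A probe set was tested where 2 or more arrays read above their own median. The model held 7 group means and was fitted by limma 3.58.1 under R 4.3.3 (eBayes with a trend, 13 residual degrees of freedom), after being tested on simulated data. Array medians ran from 0.195 to 0.377, the lowest correlation within a group was 0.937, and no 2 arrays were identical. Precision is limited by how few arrays there are.

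In the annotation 22436 probe sets name 1 gene, 95 name several and 34850 are unnamed here. The brightest tested probe set stands for a gene. RefSeq names of assembly ASM3414082v1 served for symbols, synonyms and neighbours, with no coordinates. Of 2269 tested genes with a symbol, the 16 largest rises and 10 largest falls with arrays apart, the most changed member of each list in each direction and 2 genes like each of the 6 largest rises were named by rule. Other list members were named after their values were seen. The comparison, the genes and the 25 gene lists and 6 marker lists were chosen with earlier results of these data known, and list members that matched by letters only were then removed by name.

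Alternatives were 3 other scalings, 2 filters, 2 floors, no cross-hybridising probe sets, no variance trend, array weights, a fit of the 3 groups alone, a replicate block, 2 call rules, and each of 9 arrays left out. A fit without the 5 min stigma arrays was chosen after seeing the data.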

Additional observations from a re-analysis of the deposited data

How the results depend on the processing

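The count of higher probe sets, 1425, was 934 with 1 adjustment over the larger p of both comparisons. Under every other setting it lay between 988 and 1649. The count of lower probe sets, 703, moved more: it was 111 with median centring, 348 with scaling on bright probe sets, 1184 with array weights, 214 with only the 3 groups in the fit, 56 with a 2-fold minimum and 243 with 1 adjustment over the larger p. Fits without 1 array gave 988 to 1411 higher and 266 to 865 lower. Of the 703 lower probe sets 96 kept their call under median centring and 322 under bright scaling, and of the 1425 higher ones 1176 and 1389. Quantile normalization kept 524 and 1383. The cause of these changes was not tested. No named gene reversed in any setting in which it was tested. Of the 18 named lower genes 14 lost their call under median centring and 15 in the 3-group fit, and of the 30 named higher genes 2 and 3. Without the 5 min stigma arrays 1512 were higher and 898 lower.

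The deviations of same-numbered arrays correlated at -0.26 to 0.43. They were positive for all 3 numbers between pistil and ovary (0.43, 0.16 and 0.03), and 2 of 9 exceeded 0.1. Replicates were therefore not treated as paired. An array correlated best with its own number in 4 of 18 comparisons with another group. With the replicate block 1466 were higher and 796 lower, and among the named genes the calls of TUB4, BGLU19, PSB28 and KO1 were lost. The promoter motif counts were not run, because no promoter sequence was given. Signal near the floor limits the folds of dim genes, and groups of 3 arrays were not tested for outlying samples.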
